A study of Homo sapiens with 4 samples.

Results

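Metallothioneins are small cysteine-rich proteins that bind zinc and copper, and together with the zinc exporter SLC30A1 and the zinc-sensing transcription factor MTF1 they form the core of the metal response of a human cell. The 9 genes described here, MT1A, MT1E, MT1F, MT1G, MT1M, MT1X, MT2A, MTF1 and SLC30A1, were chosen by symbol from the 23362 genes of the expression table, and each symbol occurred once. RNA sequencing was performed on MKN28, a human gastric adenocarcinoma cell line, with 1 library for each of 4 stable lines. Luc expressed luciferase and served as the control, WT expressed unmodified KIAA1324, a transmembrane glycoprotein, 3NQ expressed KIAA1324 with glutamine in place of asparagine at 3 putative N-glycosylation sites, and the line labelled ΔTM was to express KIAA1324 without its transmembrane domain. All 4 lines were made with retroviral vectors under a doxycycline-dependent promoter, were selected with antibiotics and shared medium and serum. The sources used here do not say whether each line was a pool or a single clone, nor whether doxycycline induction preceded RNA extraction and how long it lasted. With 1 library per line there was no replicate check, so every difference given below compares 2 libraries and carries no error estimate or p-value.

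Zinc that enters the cytosol binds the zinc fingers of MTF1, which then binds metal response elements in the promoters of metallothionein genes and of SLC30A1. Metallothioneins buffer the metal in the cytosol, and SLC30A1 moves zinc out through the plasma membrane, so transcripts of both are widely used as a readout of available zinc, cadmium or copper. Metallothionein transcripts also rise with glucocorticoids and with oxidative stress, and MT2A is commonly the most abundant of them in epithelial cells.

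Levels are given as FPKM, fragments scaled to transcript length and to the mapped total, which is meant to let genes of different length be compared. The transcripts of MT2A and MT1X, 401 and 404 nt, are near the final library size of 350 to 450 bp. How well the scaling holds for such short transcripts was not tested. Before the members, the labels were checked on the expressed gene itself. KIAA1324 was listed at 2.86 FPKM in Luc, 11185 in WT, 8197 in 3NQ, and 0 under the ΔTM label. The last value goes against the label, so that library is called by its label throughout. A value of 0 in this table can be a failed estimate, since EIF3C, a subunit of a translation initiation factor that every cell uses, was also listed at 0 in all 4 libraries. EIF3C was chosen for this check after its values were seen. Summed FPKM ranged from 560540 to 585104 and the number of genes listed at 0 from 6624 to 6903. The sequencing depth is unknown. Of the 6 epithelial markers, all were above 100 FPKM in every library. Of 8 markers of blood, fibroblast, endothelial and muscle cells, 7 were in the table and only COL1A1, between 12.1 and 15.3 FPKM, reached 1 FPKM, while CD3E was listed at 0 throughout. In bulk RNA, fewer cells that express a gene and less RNA of it per cell cannot be told apart.

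The regulatory sequence that ties these genes together is the metal response element, whose core was searched as TGCACNC or TGCGCNC on both strands of the 250 bases before each transcription start (RefSeq, GRCh38.p14). The forms differ at 1 fixed base and cannot match at the same place, and no matches overlapped. Promoters were matched for 4 of the 9 genes, MT2A, MT1X, SLC30A1 and MTF1, and not for MT1A, MT1E, MT1F, MT1G and MT1M. Core matches stand in capitals, in the sense of each gene, so a match on the other strand appears as its reverse complement. The sequences of the 2 most abundant metallothioneins and of the exporter are shown because their transcripts are the ones compared below.
MT2A, chr16:56608334-56608583, plus strand: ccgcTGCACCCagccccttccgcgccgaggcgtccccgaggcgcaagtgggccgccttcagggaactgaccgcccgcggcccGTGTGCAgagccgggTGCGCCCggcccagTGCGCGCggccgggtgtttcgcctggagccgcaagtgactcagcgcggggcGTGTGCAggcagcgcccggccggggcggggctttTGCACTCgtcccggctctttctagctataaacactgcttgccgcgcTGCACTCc
MT1X, chr16:56682220-56682469, plus strand: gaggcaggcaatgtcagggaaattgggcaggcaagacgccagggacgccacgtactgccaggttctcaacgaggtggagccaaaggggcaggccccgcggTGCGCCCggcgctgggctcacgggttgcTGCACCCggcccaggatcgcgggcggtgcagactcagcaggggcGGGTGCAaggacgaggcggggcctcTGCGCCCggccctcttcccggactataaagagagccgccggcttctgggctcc
SLC30A1, chr1:211579162-211579411, minus strand: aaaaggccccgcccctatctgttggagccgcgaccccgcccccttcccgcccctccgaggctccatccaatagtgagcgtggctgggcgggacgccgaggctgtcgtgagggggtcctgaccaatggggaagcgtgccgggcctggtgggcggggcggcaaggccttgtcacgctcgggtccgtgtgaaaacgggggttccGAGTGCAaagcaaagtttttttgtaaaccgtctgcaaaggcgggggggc
MT2A held 7 core matches, 5 of them on the sense strand, and 0.0313% of the 35116 promoters searched held as many or more. MT1X held 4, 3 of them on the sense strand, a number reached by 0.370% of promoters. SLC30A1 held 1, and 24.8% of all promoters held at least as many, while the promoter of MTF1 held 0. At least 2 matches occurred in 6.48% of promoters. A match is a description of the letters and not a bound site, and its absence says nothing about MTF1 beyond this window.

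The metallothionein members lie in 1 cluster on chromosome 16. Apart from MT1E in the form used here, they have similar coding sequences, which bears on how well their reads can be told apart. The coding sequences of MT2A and MT1X (GENCODE annotation of GRCh37, 3 exons each) are 186 bases long and are shown with the cysteine codons in capitals.
MT2A: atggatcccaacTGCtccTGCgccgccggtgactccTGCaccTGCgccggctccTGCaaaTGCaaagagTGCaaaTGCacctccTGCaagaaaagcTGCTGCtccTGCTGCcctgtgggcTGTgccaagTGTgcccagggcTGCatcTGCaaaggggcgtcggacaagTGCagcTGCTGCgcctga
MT1X: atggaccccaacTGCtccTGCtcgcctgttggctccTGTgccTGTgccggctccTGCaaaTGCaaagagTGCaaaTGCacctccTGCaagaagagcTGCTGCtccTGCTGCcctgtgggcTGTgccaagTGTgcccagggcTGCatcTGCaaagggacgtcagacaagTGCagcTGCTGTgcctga
Both hold 20 cysteine codons among 61 codons, or 32.8%, the residues that bind metal. They were identical at 172 of 186 aligned bases, or 92.5%. Among the 6 metallothionein members other than MT1E, the 15 pairs of coding sequences were 88.7% to 93.7% identical. MT1E was left out because its canonical transcript is a longer form of 2 exons. That form has 14 cysteine codons among 127 codons, and its coding sequence was 40.6% to 42.7% identical to those of the other members. The transcripts of MT2A and MT1X are 401 and 404 nt long. Only the coding parts were compared, so the likeness of the whole transcripts is not known. Levels of single metallothioneins are uncertain to an unknown degree, since reads from similar stretches can be assigned to either gene.

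MT2A (ENSG00000125148, GRCh37 chr16:56642111-56643409, plus strand), the main cytosolic metallothionein, was the most abundant of the 9 genes. It was listed at 134.7 FPKM in Luc, 93.9 in WT, 106.8 in 3NQ, and 143.7 under the ΔTM label. The libraries thus fell into a higher pair, Luc and the library labelled ΔTM, and a lower pair, WT and 3NQ. A link of MT2A to the level of KIAA1324 was not tested. In Luc, 93.9% of the 11769 genes with at least 1 FPKM in at least 1 library, the genes compared here, were below MT2A, and in WT 90.5% were.

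MT1X (ENSG00000187193, chr16:56716336-56718108, plus strand) was the second metallothionein by level, at 23.8 FPKM in Luc, 22.2 in WT, 23.1 in 3NQ, and 35.8 under the ΔTM label. The 3 first values lay close together and the last stood above them. MT1X therefore did not share the lower values of MT2A in WT and 3NQ. MT2A exceeded MT1X 5.66-fold in Luc, 4.23-fold in WT, 4.62-fold in 3NQ, and 4.01-fold under the ΔTM label, so their proportion was furthest towards MT2A in the control.

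MT1F (ENSG00000198417, chr16:56691606-56694610, plus strand) was the only other metallothionein member above 1 FPKM, at 2.53 in Luc, 2.90 in WT, 3.301 in 3NQ, and 2.83 under the ΔTM label. Its lowest value was in the control and its highest in 3NQ, an order that neither MT2A nor MT1X showed. MT1G (ENSG00000125144, chr16:56700643-56701977, minus strand) was listed at 0.270 FPKM in Luc and at 0 in the other libraries. MT1E (ENSG00000169715, chr16:56659387-56661024, plus strand) was listed at 0.172 in WT, 0.0743 in 3NQ and 0 in the others. MT1M (ENSG00000205364, chr16:56666145-56667898, plus strand) and MT1A (ENSG00000205362, chr16:56672578-56673999, plus strand) were listed at 0 in all 4 libraries. No fold is given for these 4 genes, because 0 may be a failed estimate and the other values are near it.

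**Figure D1:**
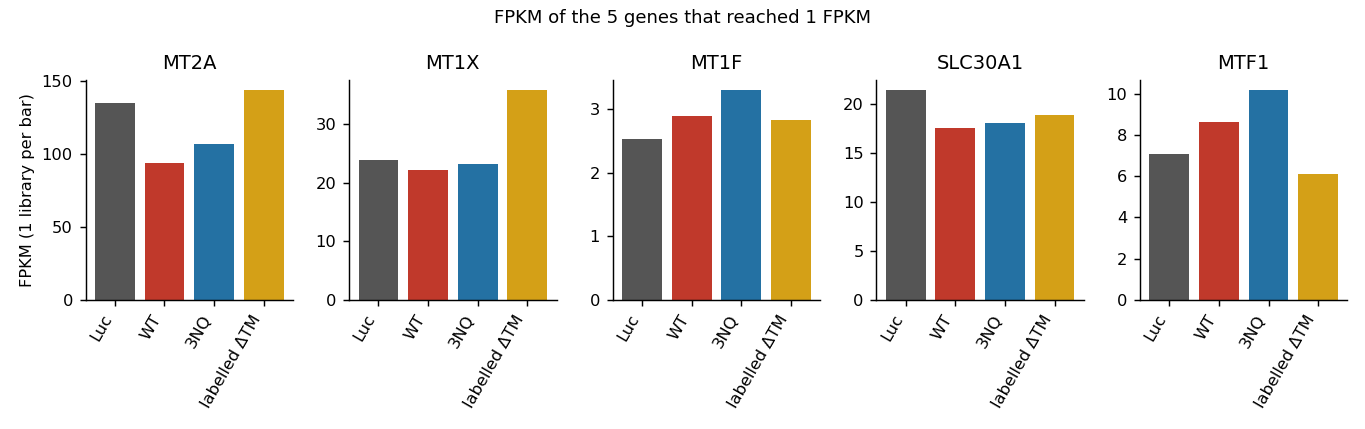
FPKM (vertical axes, each from 0) of the 5 genes of the set that reached 1 FPKM, with 1 bar per library and no error bars because each line had 1 library. MT2A is lower in WT (93.9) and 3NQ (106.8) than in Luc (134.7) and the library labelled ΔTM (143.7), MT1X stands out in the library labelled ΔTM (35.8), and MTF1 is highest in 3NQ (10.2).

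The annotation placed 14 metallothionein entries, pseudogenes included, within 119 kb of chromosome 16. Of these, 8 were listed at 0 in every library and 3 reached 1 FPKM, MT2A, MT1X and MT1F. MT1F starts 49.5 kb and MT1X 74.2 kb from MT2A, with entries listed at or near 0 between them. MT1B, which is not a member, was listed at 0.360 FPKM in the library labelled ΔTM only. Of the other metallothionein list, 1 of 7 genes passed the minimum of 1 FPKM. That gene was MTL5, which carries the name by its cysteine-rich sequence but is not a metal buffer of the cluster, at 8.999 to 10.1 FPKM.

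**Figure D2:**
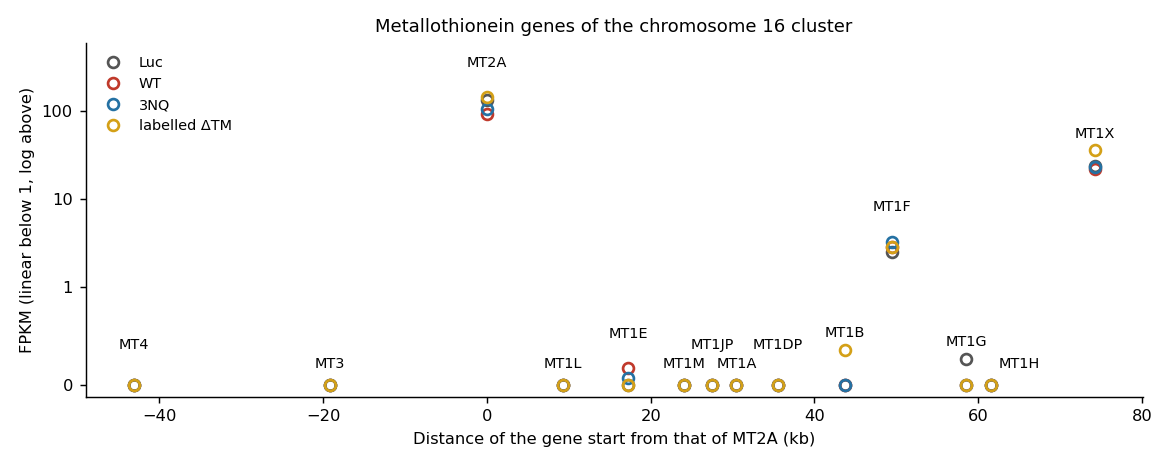
FPKM (vertical axis, linear below 1 and logarithmic above) of the 14 metallothionein entries of chromosome 16 against the distance of the gene start from that of MT2A (kb), with 1 circle per library. MT2A, MT1X and MT1F are listed above 1 FPKM, and the entries between them are listed at or near 0 in all 4 libraries.

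Summed over the 7 metallothionein members, the level was 161.3 FPKM in Luc, 119 in WT, 133 in 3NQ, and 182 under the ΔTM label. MT2A alone made up 83.5% of the sum in Luc, 78.8% in WT, 80.1% in 3NQ, and 78.8% under the ΔTM label. With MT1X added, the share was between 97.4% and 98.4%. These shares count a member listed at 0 as 0.

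MTF1 (ENSG00000188786, chr1:38275239-38325292, minus strand), the transcription factor of the group, is itself regulated mainly as a protein, through zinc binding and entry to the nucleus. Its transcript was listed at 7.07 FPKM in Luc, 8.63 in WT, 10.2 in 3NQ, and 6.13 under the ΔTM label. The order of the libraries was the reverse of the order for MT2A except that WT and 3NQ changed places. SLC30A1 (ENSG00000170385, chr1:211744910-211752084, minus strand), the plasma membrane exporter, was listed at 21.4 FPKM in Luc, 17.5 in WT, 18.1 in 3NQ, and 18.9 under the ΔTM label. All 3 values were below that of the control, and they spanned less than the gap between the highest of them and Luc. Per unit of MTF1, the summed metallothioneins were 22.8 in Luc, 13.8 in WT, 13.1 in 3NQ, and 29.7 under the ΔTM label.

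The first question was how the KIAA1324 lines differed from the control. Ratios were taken of FPKM + 1 and are given on the log2 scale, which understates the change of low genes, and a gene was called when the ratio reached 1.5-fold. Of the 9 genes, 5 passed the minimum of 1 FPKM, namely MT2A, MT1X, MT1F, MTF1 and SLC30A1. The 3 comparisons share the Luc library, so a low or high value there moves all of them.

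In WT, 0 of the 5 genes were called higher and 0 lower, beside 3.36% of all compared genes called higher and 3.34% lower. MT2A came nearest to the threshold, with a difference of -0.52 or 0.699 times the control, and 4.83% of all compared genes were as far below the control. Among compared genes with a canonical transcript of up to 600 nt, as MT2A has, 6.90% were called lower. SLC30A1 differed by -0.28 and MT1X by -0.10, while MT1F at 0.14 and MTF1 at 0.25 were on the other side. The median of the 5 genes was -0.10, beside -0.0049 for all compared genes. Of 8 genes commonly used as scale references, 0 were called and 5 were below the control, with a median of -0.13. Among them HPRT1 at -0.52, GAPDH at -0.47 and RPLP0 at -0.39, named after their values were seen, had differences near that of MT2A, and the other 5 lay between -0.15 and 0.12.

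In 3NQ, 0 of the 5 genes were called in either direction, beside 1.77% of all compared genes called higher and 2.57% lower. MTF1 had the highest difference, 0.47 or 1.39 times the control, and 2.96% of compared genes were as far above it. MT2A differed by -0.33, a value that 11.01% of compared genes reached, and SLC30A1 by -0.24. MT1X, at -0.04, lay at the median of all compared genes, which was also -0.04, and MT1F was at 0.28.

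Under the ΔTM label, 0 of the 5 genes were called higher and 0 lower than in Luc, beside backgrounds of 1.54% and 1.57%. MT1X was just under the threshold, at 0.57 or 1.48 times the control, and 1.69% of compared genes were as far above the control. Among compared genes with a canonical transcript of up to 600 nt, as MT1X has, 6.13% were called higher. MT1X depended on the setting. It passed the threshold at 0.59 with a pseudocount of 0.1, at 0.64 with libraries scaled by the median of ratios, and at 0.60 with upper quartile scaling. MT2A at 0.09 and MT1F at 0.12 were close to the control, and MTF1 and SLC30A1 both differed by -0.18.

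The next question was how the KIAA1324 lines differed from each other, without the control. The library labelled ΔTM against WT had 2 of 5 genes called higher, MT2A and MT1X, and 0 lower, beside 2.91% of all compared genes called higher and 4.25% lower. MT1X was higher by 0.67, or 1.59-fold, and MT2A by 0.61, or 1.52-fold. With a pseudocount of 5, MT1X fell just under the threshold, at 0.58, and MT2A stayed above it at 0.59. As far above WT were 2.00% of compared genes for MT1X and 2.59% for MT2A. MTF1 went the other way, at -0.43, and SLC30A1 at 0.10 and MT1F at -0.02 hardly differed between these libraries. The median of the 5 genes was 0.10, beside -0.05 for all compared genes.

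The called pair are both short transcripts, and short transcripts varied more between these libraries. Of 261 compared genes with a canonical transcript of up to 600 nt, 9.58% were called lower in the library labelled ΔTM than in WT and 7.28% higher, whereas of 9750 genes over 1500 nt, 2.35% were called higher and 4.14% lower. The median of the short genes was 0.0024 in this comparison, so they varied in both directions. With the median of each length class removed, both genes stayed above the threshold. That step shifts the short genes together and does not narrow their spread. The part of the spread in the result was not tested. Of the 8 scale references, 4 were above WT and 4 below in the same pair and 0 were called, with a median of 0.02, and of the 6 epithelial markers 2, KRT18 at 0.77 and KRT8 at 0.62, were called higher.

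Between 3NQ and WT, 0 of the 5 genes were called, beside 1.58% of compared genes higher and 2.89% lower in 3NQ. MTF1 differed by 0.22, MT2A by 0.18, MT1F by 0.14, MT1X by 0.06 and SLC30A1 by 0.04. All 5 values were above 0, and the median of all compared genes was -0.03. The largest of them, that of MTF1, was smaller than the largest difference in either other pair without Luc.

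Between 3NQ and the library labelled ΔTM, 1 gene was called higher in 3NQ and 1 lower, beside 1.46% of compared genes higher and 1.88% lower. The higher gene was MTF1, at 0.65 or 1.57-fold, and 1.05% of compared genes were as far above. The lower gene was MT1X, at -0.61 or 0.656 times the other library, with 1.68% of compared genes as far below. Its transcript is short, 404 nt, and 7.66% of compared genes with a canonical transcript of up to 600 nt were called lower in this pair. MT2A differed in the same direction as MT1X, at -0.42, and was not called. With a pseudocount of 5 both calls were lost, at 0.45 for MTF1 and -0.54 for MT1X. SLC30A1 differed by -0.06 and MT1F by 0.17. MTF1 has a long transcript, 7937 nt, and its sequence was not compared with that of other genes.

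**Figure D3:**
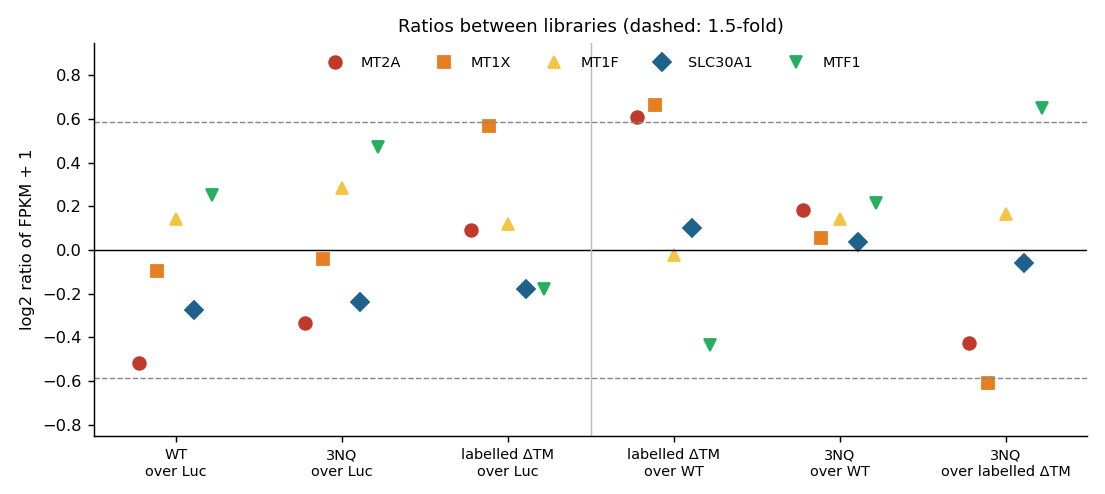
log2 ratios of FPKM + 1 (vertical axis) for the 5 genes that reached 1 FPKM, in the 3 comparisons with Luc (left of the grey line) and the 3 pairs without it (right), with dashed lines at 1.5-fold. All points lie within the dashed lines against Luc, and MT1X and MT2A (library labelled ΔTM over WT), MTF1 and MT1X (3NQ over the library labelled ΔTM) lie outside them.

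The other zinc transporters were described from fixed family lists. SLC30 proteins move zinc out of the cytosol, into organelles or out of the cell. Of 9 exporters other than SLC30A1, 5 passed the minimum and 0 were called in any line against Luc. Across the lines, 1.54% to 3.36% of all compared genes were called higher and 1.57% to 3.34% lower. A count of 0 of 5 is near those shares. All 5 were above the control in WT, with a median of 0.34, though SLC30A9 by only 0.0038, whereas SLC30A1 was below it. In 3NQ 3 of 5 were above the control, with a median of 0.10. In the library labelled ΔTM 2 of 5 were above the control, with a median of -0.09. SLC30A6, which loads zinc into the secretory pathway and had the highest mean of these 9 over the libraries, was listed at 27.8 FPKM in Luc, 36.4 in WT, 37.4 in 3NQ, and 33.6 under the ΔTM label, above SLC30A1 in every library.

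SLC39 proteins bring zinc into the cytosol. Of 14 importers, 11 passed the minimum, 2 were called higher in WT and 0 were called in 3NQ or the library labelled ΔTM. The shares of all compared genes called higher were 3.36% in WT, 1.77% in 3NQ and 1.54% under the ΔTM label. The called importers were SLC39A7 and SLC39A13, both of which release zinc from the endoplasmic reticulum and Golgi or their vesicles. SLC39A7 was listed at 60.3 FPKM in Luc, 94.6 in WT, 75.2 in 3NQ, and 66.4 under the ΔTM label, a difference of 0.64 between WT and Luc. SLC39A13 was listed at 10.9, 17.5, 13.7 and 9.07 in the same order, and also differed by 0.64. SLC39A1, the most abundant importer and located at the plasma membrane, stayed between 132 and 148 FPKM. SLC39A13 fell under the threshold with a pseudocount of 5, at 0.51, and SLC39A7 with the mean of the other 3 libraries as control, at 0.49. The median of the importers in WT was -0.06.

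**Figure D4:**
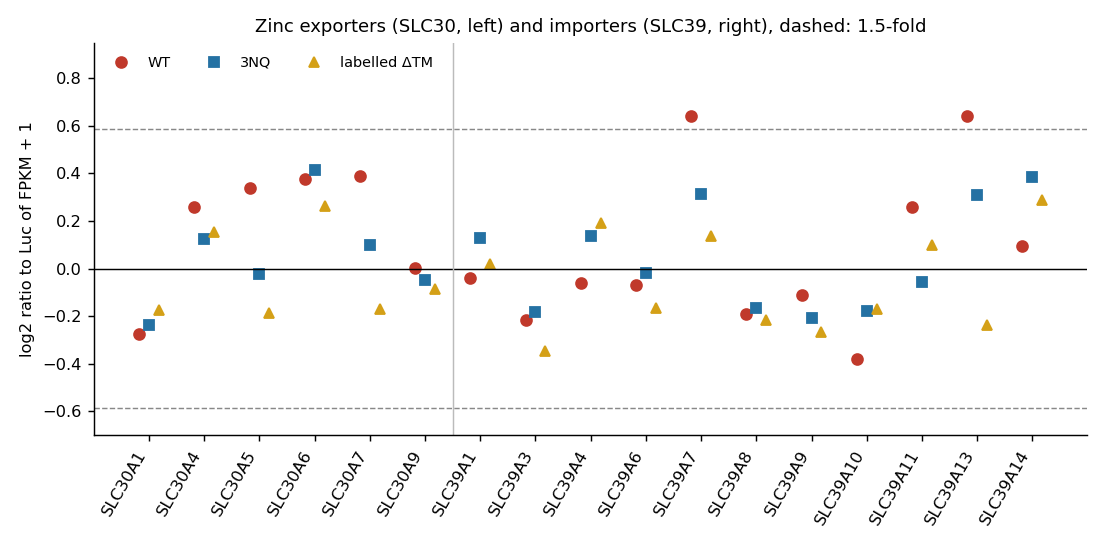
log2 ratios to Luc of FPKM + 1 (vertical axis) for the zinc exporters (SLC30, left of the grey line) and importers (SLC39, right) that reached 1 FPKM, with 1 marker per line and dashed lines at 1.5-fold. SLC30A1 is below the control in all 3 lines, and SLC39A7 and SLC39A13 are above the upper dashed line in WT, both at 0.64.

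Lists of genes that answer to other metals or to stresses that also act on metallothioneins were set beside the members. Of the copper handling list, 9 of 10 genes passed the minimum and 0 were called against Luc. With a pseudocount of 0.1, SLC31A2, a copper transporter, passed the threshold in WT at 0.64. COX17, the copper chaperone of cytochrome oxidase and the most abundant of that list, was between 76.1 and 88.1 FPKM. Of the 11 iron handling genes, all passed and 0 were called, and FTL, the ferritin light chain, was listed at 884 FPKM in Luc, 1270 in WT, 1097 in 3NQ, and 1107 under the ΔTM label. Across the lines, 1.54% to 3.36% of all compared genes were called higher than in Luc and 1.57% to 3.34% lower. Counts of 0 among 9 copper and 11 iron genes are near those shares.

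NRF2 is the transcription factor of the oxidative stress response. Of its 10 listed targets, 2 were called higher in WT, 1 in 3NQ, and 0 under the ΔTM label, with medians of 0.33, 0.24 and 0.05. The shares of all compared genes called higher were 3.36%, 1.77% and 1.54% in the same order. OSGIN1, which restrains growth under oxidative stress, differed by 1.09 in WT, and GCLC, the catalytic subunit of the first enzyme of glutathione synthesis, by 0.84. SLC7A11, the cystine importer, differed by 0.70 in 3NQ, a call lost at 0.56 both with a pseudocount of 5 and with the mean of the other libraries as control. TXN, thioredoxin and the most abundant of the list, was between 439 and 561 FPKM. OSGIN1, GCLC and SLC7A11 were each higher in both WT and 3NQ, the libraries with less MT2A, than in Luc and the library labelled ΔTM.

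Of 11 heat shock genes, 9 passed and 0 were called against Luc, with medians between -0.02 and 0.09. Across the lines, 1.54% to 3.36% of all compared genes were called higher and 1.57% to 3.34% lower, so 0 of 9 is near those shares. HSPA8, the constitutive cytosolic chaperone, was between 2478 and 2855 FPKM. Of 8 genes that respond to glucocorticoids, 5 passed. The shares of all compared genes were 3.36% called higher in WT and 2.57% called lower in 3NQ. TSC22D3 was called higher in WT, at 0.31 FPKM in Luc and 2.02 in WT, and PER1, a clock gene, was called lower in 3NQ, at 5.25 FPKM in Luc and 2.76 in 3NQ. With a pseudocount of 5 both calls were lost, at 0.40 for TSC22D3 and -0.40 for PER1, and TSC22D3 did not reach a minimum of 5 FPKM. SGK1, a kinase and the most abundant of these, was between 13.9 and 19.8 FPKM. Of the epithelial list, KRT8 at -0.91 and KRT18 at -0.80 were called lower in WT, beside 3.34% of all compared genes. ACTB, the scale reference with the highest mean over the libraries, was between 2366 and 2598 FPKM.

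The genes whose pattern was most like that of MT2A were sought among 7317 genes outside the lists with a mean of at least 10 FPKM, by the Euclidean distance of log2 values centred over the 4 libraries. The nearest were MAPKAP1 at a distance of 0.0403, TMEM97 at 0.0466, PRDX3 at 0.0540, NASP at 0.0683 and RRM1 at 0.0701. MAPKAP1, a subunit of a kinase complex, was listed at 82.5 FPKM in Luc, 55.2 in WT, 64.3 in 3NQ, and 86.7 under the ΔTM label. PRDX3, a mitochondrial peroxidase, was listed at 246 FPKM in Luc, 170.0 in WT, 201 in 3NQ, and 257 under the ΔTM label. Among the other members, MT1X was at a distance of 0.369, SLC30A1 at 0.371, MT1F at 0.625 and MTF1 at 0.942. The nearest genes were picked as the smallest of 7317 distances, so members chosen beforehand would almost always lie farther. The share of the 7317 genes nearer than each member was not taken. Whether a member was unusually near to MT2A or far from it therefore cannot be read from these values. With 4 points per gene, such distances describe these libraries only.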

How the data were processed

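The authors enriched poly(A) RNA from each MKN28 line, prepared libraries whose final size measured 350 to 450 bp, filtered reads on undetermined bases and quality, aligned them with TopHat to GRCh37 and estimated FPKM with Cufflinks 2.1.1, masking non-coding genes and correcting for fragment bias and reads with several alignments. The deposited FPKM values, 1 column for each of the 4 libraries, were used as they stand. The files hold no counts, so depth is unknown and no interval or floor is given.

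Genes with at least 1 FPKM in at least 1 library were compared (11769 of 23362), ratios were taken of FPKM + 1, and calls were made at 1.5-fold. With 1 library per line no test was run. The script was checked on simulated data. The members and lists were chosen with earlier results of these data known. Named genes are every member, from each other list up to 4 genes called against Luc and the most abundant gene, the 5 genes nearest in pattern to the most abundant metallothionein, and KIAA1324. Other names are marked as chosen after their values were seen, except that counts of 5 or fewer are named. Positions of genes are GRCh37, promoters are RefSeq on GRCh38.p14, with no conversion between builds. Python 3.11.15, numpy 2.4.6, pandas 2.3.3, Biopython 1.88 and matplotlib 3.10.9 were used. Alternatives covered the pseudocount, filter, scaling, control, fold threshold and transcript length class.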

Additional observations from a re-analysis of the deposited data

Results flagged for a closer look

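Some members lay on opposite sides of Luc in different lines, and the difference between those lines reached 1.5-fold. With 1 library per line the difference was not tested. MT2A was below Luc in WT and above it in the library labelled ΔTM, a difference of 0.61 on the log2 scale between the last and WT. MT1X was below Luc in WT (-0.10) and 3NQ (-0.04) and above it in the library labelled ΔTM. The value in 3NQ was at the median of all compared genes and changed sign with median of ratios scaling. The library labelled ΔTM differed by 0.67 from WT in MT1X, while 3NQ differed from it by -0.61. MTF1 was above Luc in 3NQ and below it in the library labelled ΔTM, a difference of 0.65.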

How the results depend on the processing

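Relative to Luc, the number of members called higher in the library labelled ΔTM was 0 as reported and became 1, MT1X, with a pseudocount of 0.1 (log2 difference 0.59), median of ratios scaling (0.64), upper quartile scaling (0.60) and the mean of the other 3 libraries as control (0.61). In the library labelled ΔTM against WT the number called higher fell from 2 to 1 with a pseudocount of 5, with MT2A kept and MT1X just under the threshold at 0.58, and to 0 at a 2-fold threshold. In 3NQ against the library labelled ΔTM the number called higher and the number called lower each fell from 1 to 0 with a pseudocount of 5 (MTF1 0.45, MT1X -0.54) and at a 2-fold threshold. The median of the members against Luc became 0 in all 3 lines with no filter on low values, because the members listed at or near 0 then enter it. That median was 0.09 under the ΔTM label and became -0.042 with a minimum of 5 FPKM and -0.0055 with the mean of the other 3 libraries as control. In 3NQ it was -0.04 and became 0.0032 with median of ratios scaling and -0.14 with a minimum of 5 FPKM, and in WT it was -0.10 and became -0.19 with that minimum.

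Of the other lists against Luc, the importers called higher in WT fell from 2 to 1 with a pseudocount of 5 and with the mean of the other libraries as control, and to 0 at 2-fold. NRF2 targets called higher fell from 2 to 1 in WT at 2-fold, and from 1 to 0 in 3NQ at 2-fold, with a pseudocount of 5 and with the mean of the other libraries as control. The glucocorticoid gene called higher in WT was lost (0) with a pseudocount of 5 and a minimum of 5 FPKM, and the one called lower in 3NQ was lost (0) with a pseudocount of 5 and at 2-fold. With a pseudocount of 0.1, 1 copper gene (SLC31A2) was called higher in WT, and in 3NQ 1 glucocorticoid gene (TSC22D3) was called higher and 2 lower (PER1 and KLF9). With no filter 1 heat shock gene (HSPA6) was called higher in WT, and at 2-fold 0 epithelial markers were called lower in WT. In the pairs without Luc, 35 list counts or medians moved, the calls lost for genes named being given with them.

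Of 30 member ratios, 3 changed sign in some alternative: MT1F in the library labelled ΔTM against Luc and against WT, and MT1X in 3NQ against Luc. No scaling moved the median of all compared genes by more than 0.1 (log2). The alternatives on the pairs without Luc and the removal of the length class median were chosen after seeing the data. No paired analysis was possible because each line had 1 library. How reads of metallothioneins with similar coding sequences were divided could not be measured from these files, and no depth was available to bound low values.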

Other observations

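In the pairs of libraries without Luc, single genes of other metal lists were also called, named here after their values were seen. ATP7A, a copper-exporting pump, was lower in 3NQ than in WT by -0.64 on the log2 scale, at 3.28 against 5.66 FPKM. SLC31A2, a copper transporter, was lower in the library labelled ΔTM than in WT by -0.60, at 2.11 against 3.73 FPKM. SLC40A1, the iron exporter ferroportin, was lower in 3NQ than in the library labelled ΔTM by -0.60, at 12.6 against 19.5 FPKM. SLC39A13 was lower in the library labelled ΔTM than in WT by -0.88, the opposite direction to MT2A and MT1X in the same pair. With a pseudocount of 5 the calls of ATP7A (-0.36), SLC31A2 (-0.29) and SLC40A1 (-0.48) were lost, and that of SLC31A2 was also lost with both other scalings and with the length class median removed. Of the 7 metallothionein genes of the list that holds no member, 6 were under 1 FPKM in every library.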
